A study of Homo sapiens with 16 samples.

Results

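The mitochondrial ribosomal protein genes are the nuclear genes whose products, together with ribosomal RNA made from mitochondrial DNA, form the ribosome inside mitochondria. They were taken as every protein-coding gene of the count table whose symbol begins with MRPL or MRPS followed by a number, which gave 78 of the 58735 genes in the table. Of the 78 members, 51 encode proteins of the large subunit, 26 encode proteins of the small subunit, and MRPS36 carries the name although its product is a subunit of the 2-oxoglutarate dehydrogenase complex. Read counts were high enough to test 77 of them. MRPS24 had between 2 and 14 counts per library and was not tested.

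The mitochondrial ribosome translates only the messenger RNAs of mitochondrial DNA, which encode core subunits of the respiratory chain and of ATP synthase, and its own protein subunits are all made in the cytosol and imported. Some of these proteins descend from proteins of bacterial ribosomes, and others are found only in mitochondria, where they replaced or were added around the shortened ribosomal RNA. Promoters of nuclear genes for mitochondrial proteins are known to be bound by ETS factors such as GABPA and by YY1 and NRF1, and MYC is known to raise the output of many such genes.

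Messenger RNA was sequenced from SW620, a human colorectal cancer line, with poly(A) selection. One derivative carried a scrambled control short hairpin RNA (scramble) and the other a short hairpin RNA against ATF4 (shATF4), the transcription factor that acts downstream of the kinase PERK in the integrated stress response. Each was sequenced untreated (3 libraries), after 24 h in 5 µM 5-fluorouracil, a pyrimidine analogue given in colorectal cancer (3 libraries), and after 48 h (2 libraries), and the stated interest of the series is the part of ATF4 in resistance to chemotherapy. The 4 libraries titled as 48 h carry a treatment tag that reads 24 h, and they were placed at 48 h by their titles and the design text. There was 1 knockdown line and 1 control line, so loss of ATF4 cannot be told apart from other differences between the lines. Untreated cells have no stated time, so time in culture cannot be told apart from the drug. No label says that replicates were separate cultures, so p-values reflect only how these libraries varied, and that variation may be technical.

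Total counts ran from 14571611 to 17824188 per library. ATF4 stood between 364 and 388 CPM (counts scaled to library size) in the 3 untreated scramble libraries and between 169 and 179 CPM in the 3 untreated shATF4 libraries, and the shATF4 values were below the scramble values at each time. Scramble untreated replicate 2 stood apart from its group by the mitochondrially encoded proteins, with 1.42% of counts where replicates 1 and 3 had 0.753% and 0.766%. ShATF4 24 h replicate 3 also stood apart: RN7SL, the RNA of the signal recognition particle, had 0.0713% of its counts and the 78 members 0.634%, where replicates 1 and 2 had 0.0224% and 0.0241%, and 0.535% and 0.584%. RN7SL also had 0.0161% of counts in scramble untreated replicate 1, against 0.00368% and 0.0031% in replicates 2 and 3. Of the epithelial markers, EPCAM had a mean of 523 CPM and KRT8 of 6710 CPM in untreated scramble cells, CDX1 was at 0 there, and LGALS4 had 0.286 CPM. The 11 epithelial markers summed to 11093 to 12471 CPM in untreated scramble libraries and to 7326 and 7507 CPM at 48 h, while CDH1 had means of 190 CPM untreated and 375 CPM at 48 h and KRT20 of 1.47 and 10.9 CPM. The 5 leukocyte markers summed to 2.85 to 4.02 CPM in untreated scramble libraries and to 29.6 to 32.1 CPM at 48 h, nearly all of it LYZ, while PTPRC was at 0 in untreated scramble cells. The 6 fibroblast markers summed to 35.4 to 44.4 CPM untreated and 53.7 to 55.4 CPM at 48 h with COL3A1 at 0. The 3 endothelial markers summed to 3.68 to 4.17 CPM untreated and 12 to 13.7 CPM at 48 h. Their part in the results was not tested.

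The promoters of 69 of the 78 members were matched by symbol in RefSeq (GRCh38.p14), each as the 300 bases from 250 before to 50 after the annotated start. Those of 3 members that fell far after 5-FU and of the single member that rose in all 4 treated groups are shown, as examples with and without the motifs. Capitals mark CCGGAAG, a core bound by ETS factors such as GABPA, and ATGGCGGC, a core bound by YY1, each searched on both strands.
MRPL16 (chr11:59810729-59811028, minus strand): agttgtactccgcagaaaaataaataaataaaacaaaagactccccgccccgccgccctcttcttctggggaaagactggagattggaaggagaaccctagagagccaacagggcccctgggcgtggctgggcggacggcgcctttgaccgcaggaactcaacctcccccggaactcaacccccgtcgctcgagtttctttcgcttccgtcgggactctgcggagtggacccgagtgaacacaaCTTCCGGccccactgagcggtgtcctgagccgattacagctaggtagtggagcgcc
MRPL19 (chr2:75646533-75646832, plus strand): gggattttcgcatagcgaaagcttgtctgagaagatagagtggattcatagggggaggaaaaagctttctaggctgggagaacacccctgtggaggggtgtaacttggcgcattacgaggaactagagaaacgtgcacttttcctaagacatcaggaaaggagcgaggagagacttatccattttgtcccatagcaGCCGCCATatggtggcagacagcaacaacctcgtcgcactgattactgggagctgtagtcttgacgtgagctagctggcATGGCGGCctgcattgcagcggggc
MRPL39 (chr21:25607432-25607731, minus strand): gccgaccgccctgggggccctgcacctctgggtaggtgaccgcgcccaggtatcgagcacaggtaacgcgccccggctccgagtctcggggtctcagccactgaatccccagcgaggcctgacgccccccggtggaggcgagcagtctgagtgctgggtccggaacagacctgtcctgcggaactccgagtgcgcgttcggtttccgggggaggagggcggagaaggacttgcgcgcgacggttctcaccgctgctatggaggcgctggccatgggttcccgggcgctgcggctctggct
MRPS6 (chr21:34073328-34073627, plus strand): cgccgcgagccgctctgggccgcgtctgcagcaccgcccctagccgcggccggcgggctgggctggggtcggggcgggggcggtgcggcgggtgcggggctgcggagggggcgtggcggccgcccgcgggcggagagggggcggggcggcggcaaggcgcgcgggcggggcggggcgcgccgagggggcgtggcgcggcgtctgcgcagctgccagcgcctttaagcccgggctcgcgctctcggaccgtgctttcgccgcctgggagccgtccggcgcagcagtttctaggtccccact

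In these letters the MRPL16 promoter held 1 ETS core, on the minus strand of the sequence as printed, and the MRPL19 promoter held a YY1 core in each orientation. The windows of MRPL39, which fell, and of MRPS6, which rose, held neither. The ETS core was present in 29 of 69 member promoters (42%), against 14.4% of 14896 promoters of protein-coding genes and 33.9% and 30.6% of the 62 matched promoters each of cytosolic ribosomal protein and nuclear respiratory chain genes. The YY1 core was present in 19 of 69 (27.5%), against 4.6% of promoters of protein-coding genes. It was in 8.06% of those of cytosolic ribosomal protein genes and 19.4% of those of respiratory chain genes. In most of the 19 a match lay after the annotated start and read ATGGCGGC, as in MRPL19. These letters begin with ATG, and whether they mark the start of translation was not examined. The NRF1 core was present in 1 of 69 (1.45%), that of MRPL17, against 1.74% of promoters of protein-coding genes and 6.45% of those of respiratory chain genes. Differences between these lists were not tested. The MYC E-box CACGTG was found in 8.7% of member promoters and 8.94% of those of protein-coding genes. TGATGCAA, a composite C/EBP-ATF element bound by ATF4, was found in none of the 69 and in 0.638% of those of protein-coding genes. No match says only that these letters are not in this window. After 48 h in scramble cells 30% of all genes were lower. Among tested members, 19 of 29 with the ETS core and 33 of 39 without it were lower then (median log2 fold changes -0.44 and -0.54). The same counts were 14 of 18 with the YY1 core and 38 of 50 without it, so member promoters with and without either core were lower in the majority of cases.

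Per kilobase of exon, levels in untreated scramble cells spanned 119-fold among tested members. MRPS34, a mitochondria-specific protein of the small subunit, was highest at 182 ± 4.11 CPM per kb (SD, n = 3), followed by MRPS26, also of the small subunit, at 129 ± 2.54, and by MRPL37 at 98.8 ± 1.4, MRPL18 at 98 ± 8.23 and MRPS35 at 95.6 ± 13.8. The last 3 did not differ beyond their spread. The lowest were MRPL38 at 1.53 ± 0.0748, MRPL46 at 2.05 ± 0.139, MRPL53 at 3.34 ± 0.36, MRPS18C at 4.36 ± 0.51 and MRPL42 at 6.6 ± 0.588 CPM per kb, against a median of 26.3. The length of MRPL42 in the table, 16393 bp, merges the exons of every annotated transcript, so a level per kilobase is low where long alternative exons are included. Other genes overlap 41.1% of the exon length of MRPL38, 11.3% of MRPL46, 45.2% of MRPL53, 40.2% of MRPS18C and 1.72% of MRPL42. The part of this overlap in their low levels was not tested.

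The summed level of the 78 members was 6208, 5883 and 6379 CPM in the 3 untreated scramble libraries, 5266, 5333 and 5352 CPM after 24 h of 5-FU, and 4196 and 4217 CPM after 48 h. In the shATF4 line it was 6007, 5943 and 5883 CPM untreated, 5362, 5879 and 6583 CPM after 24 h, and 4152 and 4123 CPM after 48 h. The 3 states of the scramble line did not overlap, and the 48 h libraries of the shATF4 line were below all of its other libraries. The 24 h libraries of the shATF4 line were spread over more than the whole range of the untreated ones, with replicate 3 the highest of all 16 libraries. These CPM use library sizes scaled by TMM, which holds most genes level between libraries. As a plain share of all counts, the members took 0.524% to 0.567% in untreated scramble libraries, 0.547% to 0.554% after 24 h and 0.48% to 0.481% after 48 h, so that the share overlapped between untreated and 24 h and was lower at 48 h. In bulk RNA fewer cells of a kind and less RNA per cell cannot be told apart.

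**Figure D1:**
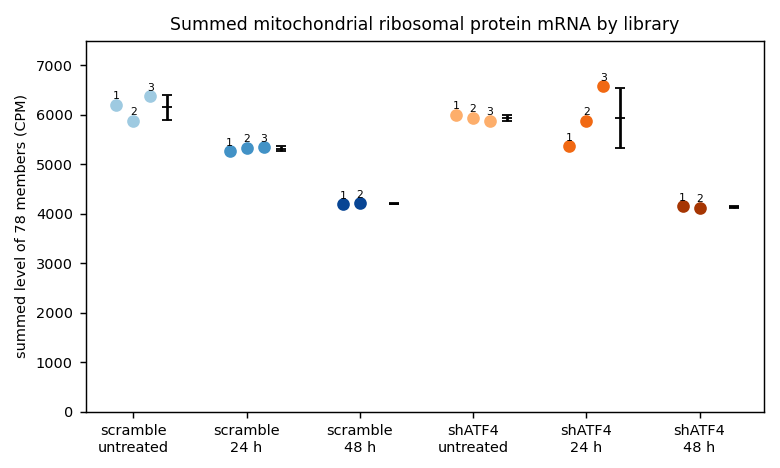
Summed level of the 78 members (vertical axis, TMM-scaled CPM) in each of the 16 libraries, with replicate numbers above the points and the group mean ± SD beside them. The 4 libraries at 48 h lie between 4123 and 4217 CPM, below all others, and the 3 shATF4 libraries at 24 h are spread from 5362 to 6583 CPM.

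After 48 h of 5-FU in scramble cells, 60 of the 77 tested members fell and 1 rose at an adjusted p under 0.05 by the quasi-likelihood test of edgeR, with Benjamini-Hochberg adjustment over all 17309 genes tested, where 30% of all genes were lower and 30.6% higher. The median log2 fold change of the members was -0.53, against 0.03 over all genes, and 11 members were called lower by more than 2-fold, against 6.05% of all genes. The called falls ran from -0.27 to -1.63 on the log2 scale, with a median of 1.57-fold. For 64 members both 48 h libraries lay below all 3 untreated libraries, against 35.7% of all genes. With library totals alone in place of TMM, which shifts the median of all genes by 0.36 on the log2 scale, 36 members were lower (14.7% of all genes) and 11 were higher (48% of all genes), and the members' median was -0.17. Relative to the median of all genes it was -0.56 under either scaling. A change of scaling shifts all genes nearly alike, so this value could not differ between the fits.

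**Figure D2:**
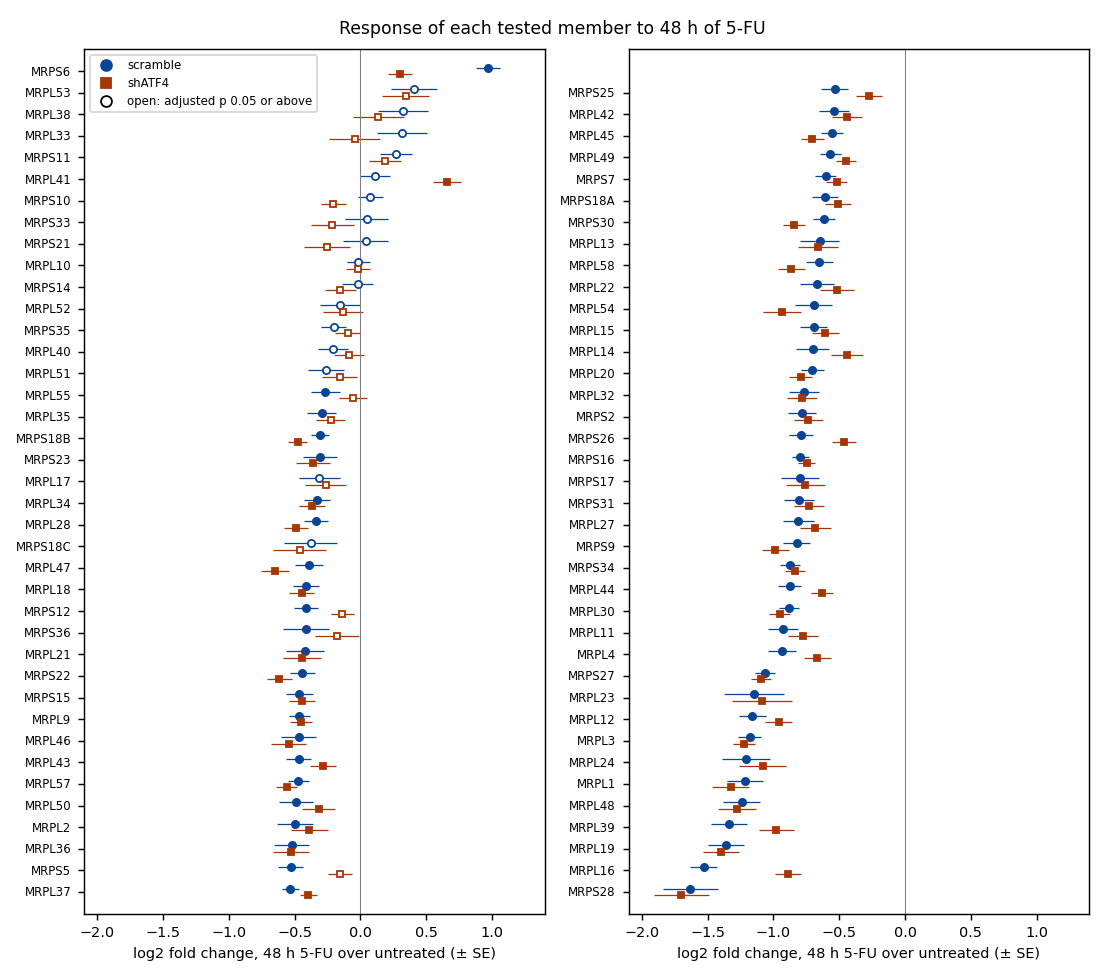
Log2 fold change at 48 h of 5-FU over untreated (horizontal axis, ± SE) of each of the 77 tested members in scramble cells (circles) and shATF4 cells (squares), ordered by the scramble value. Filled symbols passed an adjusted p under 0.05: 60 fell and 1 rose in scramble cells, and 55 fell and 2 rose in shATF4 cells.

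The largest fall was that of MRPS28, a small subunit protein counted as the counterpart of bacterial S1. Its level was 13.9, 13.2 and 14.3 CPM in untreated scramble libraries, 7.47, 8.11 and 8.23 CPM after 24 h, and 4.03 and 4.87 CPM after 48 h. The 3 states did not overlap, and the log2 fold change at 48 h was -1.63 ± 0.21 (SE; edgeR adjusted p = 8.2e-07). MRPL16, a core large subunit protein that in bacteria lies beside the tRNA sites, had 104, 93.1 and 102 CPM untreated, 77.8, 70.9 and 67.3 CPM after 24 h, and 35.2 and 33.9 CPM after 48 h. The groups were again separate, and MRPL16 was 2.89-fold lower at 48 h (log2 -1.53 ± 0.10; edgeR adjusted p = 6.8e-11). The gene lies at chr11:59806135-59810872 on the minus strand, and none of its exons overlaps another gene.

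MRPL19, the counterpart of bacterial L19, had 78.4, 60.4 and 83.9 CPM untreated and 30.7 and 27.1 CPM at 48 h, a log2 fold change of -1.36 ± 0.14 (edgeR adjusted p = 2.9e-08). The untreated values were spread widely, with scramble untreated replicate 2, which stood apart, the lowest, yet both 48 h values were below it. MRPL39, a mitochondria-specific protein of the large subunit, had 45.7, 42.4 and 41.2 CPM at 24 h, which overlapped its untreated values of 51.6, 41.3 and 50.4 CPM. It then stood at 18.4 and 19.3 CPM at 48 h, a log2 fold change of -1.34 ± 0.14. MRPL48, another mitochondria-specific protein, and MRPL1, the counterpart of the bacterial protein that forms the L1 stalk, fell by 1.24 ± 0.14 and 1.22 ± 0.13 on the log2 scale, and their untreated and 48 h libraries did not overlap. MRPL3, whose bacterial counterpart reaches towards the peptidyl transferase centre, was among the abundant members and had 208, 180 and 223 CPM untreated, 147, 147 and 155 CPM at 24 h, and 89.4 and 90.2 CPM at 48 h. Its 3 states were separate.

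By structural class, and beside 30% of all genes lower and 30.6% higher, 27 of the 30 large subunit members with a bacterial homologue fell at 48 h in scramble cells (median log2 fold change -0.68), as did 15 of the 21 mitochondria-specific large subunit members (-0.53). In the small subunit, 9 of 15 tested members with a bacterial homologue fell and 1 rose (-0.46), and 8 of 10 mitochondria-specific members fell (-0.49). Members of all 4 classes therefore had medians below 0. MRPL12, the stalk protein that is also known to bind the mitochondrial RNA polymerase, had 82.6, 90.7 and 84.8 CPM untreated, 56.3, 62.7 and 57 CPM at 24 h, and 38.5 CPM in both 48 h libraries. It fell by 1.16 ± 0.10 on the log2 scale (edgeR adjusted p = 3.6e-09). MRPL58, a peptidyl-tRNA hydrolase built into the large subunit, fell by 0.65 ± 0.10, and MRPS30, a large subunit protein despite its name, fell by 0.62 ± 0.08.

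After 24 h in scramble cells the falls were fewer and smaller: 34 of 77 members fell (22.2% of all genes) and 2 rose (21.8% of all genes), with a median log2 fold change of -0.19 against -0.01 over all genes. With library totals alone the median turned to 0.02, and 17 members were lower (9.53% of all genes) and 9 higher (34.6% of all genes). Relative to the median of all genes it was -0.18 in both fits, which the shift of all genes nearly alike fixes in advance. For 42 members the 24 h libraries lay below all untreated libraries, against 27.1% of all genes. The 24 h and 48 h comparisons share the untreated libraries. The 6 lowest were MRPL24, MRPS28, MRPL54, MRPS17, MRPL48 and MRPL36. MRPL24, the counterpart of bacterial L24, had 34.8, 36.2 and 29.9 CPM untreated and 18.9, 18.7 and 18.2 CPM at 24 h, a log2 fold change of -0.85 ± 0.16 (edgeR adjusted p = 0.00017). MRPL54, a mitochondria-specific protein, had 31, 32.2 and 29.6 CPM untreated, 19.6, 20.1 and 17.1 CPM at 24 h and 17.8 and 20.5 CPM at 48 h, so that its 24 h and 48 h values overlapped. MRPL36, the small protein bL36, likewise had 39, 32.9 and 39.1 CPM at 24 h and 37.5 and 39.3 CPM at 48 h, both below the 51.2 to 61.3 CPM of untreated cells.

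Between 24 h and 48 h in scramble cells, 40 members fell (19.5% of all genes) and 1, MRPL38, rose (18.8% of all genes), with a median of -0.33, and 60 had both 48 h libraries below all 24 h ones (32.3% of all genes). MRPL16 fell by 1.06 ± 0.10 between these times, MRPL39 by 1.19 ± 0.14, MRPL3 by 0.74 ± 0.09 and MRPL37, a mitochondria-specific large subunit protein, by 0.67 ± 0.07. MRPL37 had 254, 248 and 254 CPM untreated, 267, 285 and 281 CPM at 24 h, and 171 and 178 CPM at 48 h, so that its 24 h libraries lay above the untreated ones and its 48 h libraries below both. MRPL38, with 61 to 127 counts per library, had 4.44 to 5.75 CPM at 24 h and 6.58 and 7.42 CPM at 48 h (log2 0.51 ± 0.19; edgeR adjusted p = 0.038). The call for MRPL38 was lost when either 48 h library was left out (edgeR adjusted p = 0.25 and 0.089 without replicates 1 and 2), without 24 h replicate 2 (0.12) or 3 (0.13), and without either shATF4 48 h library (0.051 and 0.053).

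In shATF4 cells 55 of 77 members fell at 48 h (28.7% of all genes) and 2 rose (29.6% of all genes), with a median log2 fold change of -0.49 against 0.03 over all genes. All 55 had also fallen in scramble cells, which share no library with them (24.5% of all genes fell in both lines), and for 64 members both 48 h libraries lay below all untreated ones (35.4% of all genes). With library totals alone 34 were lower (14.4% of all genes) and 8 higher (46.2% of all genes), and the median was -0.17. Across the 77 members the log2 fold changes at 48 h in both lines had a Pearson correlation of 0.90 and a Spearman correlation of 0.90, and 73 of 77 had the same sign. At 24 h these values were 0.79, 0.75 and 52 of 77. This is across genes, which share library depth and scaling. MRPS28 again fell furthest, from 13.2, 13.5 and 13.7 CPM to 4.06 and 4.21 CPM (log2 -1.70 ± 0.21), followed by MRPL19 (-1.40 ± 0.14), MRPL1 (-1.33 ± 0.14), MRPL48 (-1.27 ± 0.14) and MRPL3 (-1.22 ± 0.09). MRPS27, a small subunit protein with pentatricopeptide repeats, had 157, 151 and 153 CPM untreated and 72.2 and 72 CPM at 48 h, a log2 fold change of -1.09 ± 0.08. None of these groups overlapped.

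After 24 h in shATF4 cells, 14 members fell (21.2% of all genes) and 11 rose (23.2% of all genes), and the median was 0.01 against 0.03 over all genes. These shares were below those of all genes, and 17 members lay wholly below and 7 wholly above the untreated libraries (24.3% and 25.8% of all genes). Without shATF4 24 h replicate 3, which stood apart, 25 fell and 6 rose and the median was -0.09, while without replicate 1 there were 21 that rose. Without replicate 2 the number that fell was 9, and without untreated replicate 2 it was 9 with 7 that rose. With library totals alone 7 were lower (15.2% of all genes) and 24 higher (29.6% of all genes), with a median of 0.11. MRPL3 had 223, 206 and 209 CPM untreated and 150, 150 and 167 CPM at 24 h, which did not overlap, and its log2 fold change was -0.45 ± 0.07 (edgeR adjusted p = 4.7e-05). MRPL45, which ties the ribosome to the inner membrane, fell by 0.41 ± 0.07, and MRPL4, whose bacterial counterpart lines the exit tunnel, by 0.41 ± 0.09. The 5 highest after MRPS6 were MRPL53, MRPS11, MRPL41, MRPL17 and MRPS15. MRPL17, the counterpart of bacterial L17, had 67.8, 84.8 and 124 CPM at 24 h against 73.2, 73.6 and 67.8 CPM untreated, so the groups overlapped, and its log2 fold change of 0.37 fell to 0.09 (edgeR adjusted p = 0.45) without replicate 3. Its call was also lost without any 1 of the 3 untreated libraries (edgeR adjusted p 0.064 to 0.11). MRPS15 rose by 0.30 on the log2 scale with all libraries and stood at 0.20 (edgeR adjusted p = 0.051) without replicate 3.

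From 24 h to 48 h in shATF4 cells, 60 members fell (24.5% of all genes) and none rose (23.7% of all genes), with a median of -0.55, which was -0.42 without 24 h replicate 3, and 58 had no overlap between the times (30% of all genes). The count without that replicate or any other single library lay between 53 and 64. MRPL30, the counterpart of bacterial L30, fell by 0.94 ± 0.08 and MRPS27 by 0.92 ± 0.08 on the log2 scale. At 24 h 11 members had fallen in both lines, which share no library (14.7% of all genes, close to the members' share): MRPL1, MRPL3, MRPL4, MRPL9, MRPL12, MRPL19, MRPL42, MRPL45, MRPL58, MRPS26 and MRPS27. MRPL12, for example, had 72.1, 82.5 and 72.7 CPM in untreated shATF4 cells, 59, 64.3 and 52.6 CPM at 24 h, and 35.6 and 42.3 CPM at 48 h, and these 3 states did not overlap.

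The lines were also set against each other directly. Before treatment, of 77 members none was lower and none higher in untreated shATF4 cells than in untreated scramble cells in edgeR's test (1.84% and 1.08% of all genes), 8 had an unadjusted p under 0.05, and DESeq2 called none. The authors' deposited table has MRPL34 and MRPS33 as higher there (adjusted p = 0.0497 and 0.0384). At 24 h, 21 members were higher in shATF4 cells (10.5% of all genes) and MRPL39 was lower (9.89% of all genes), with a median of 0.17, and 23 were higher with no overlap (17.3% of all genes). The authors' deposited table has 9 higher and none lower. RN7SL moved with this contrast, at 0.0224% to 0.0713% of counts in the 3 shATF4 libraries and 0.00424% to 0.00614% in the 3 scramble libraries, and its part in the result was not tested. The number higher was 10 without shATF4 replicate 3, 34 without shATF4 replicate 1, and 7, 7 and 8 without scramble replicates 1, 2 and 3. MRPL27, the counterpart of a bacterial protein at the peptidyl transferase centre, had the smallest p, with 46.6, 57.2 and 68.9 CPM in shATF4 cells and 42.1, 38.8 and 42 CPM in scramble cells (log2 0.49 ± 0.10; edgeR adjusted p = 0.0024). The groups did not overlap. MRPS34 was higher by 0.30 ± 0.07, MRPL57 by 0.30 ± 0.07 and MRPL14, the counterpart of bacterial L14, by 0.46 ± 0.11. MRPL39 was lower, with 30.1, 28.6 and 41.1 CPM against 45.7, 42.4 and 41.2 CPM, which did not overlap, and this call was lost without shATF4 replicate 1 or 2 or scramble replicate 1 (edgeR adjusted p = 0.065, 0.13 and 0.085). At 48 h, MRPS6 and MRPL47 were lower (5.53% of all genes) and MRPL16 and MRPS5 higher (3.92% of all genes) in shATF4 cells. The calls for MRPL47 and MRPS5 were each lost when 1 of the 48 h libraries was left out, MRPL47 without scramble replicate 1 or 2 or shATF4 replicate 2 (edgeR adjusted p 0.12 to 0.30) and MRPS5 without scramble replicate 2 or shATF4 replicate 1 or 2 (0.079 to 0.23).

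The difference in response between the lines was tested as an interaction. At 24 h 1 member, MRPL27, had a response that was higher in shATF4 cells (0.947% of all genes) and none had one that was lower (1.18% of all genes, and 29 members had an unadjusted p under 0.05 in either direction), with a median difference of 0.23 on the log2 scale against 0.02 over all genes. DESeq2 called 3 higher and none lower. The number higher was 22 without shATF4 24 h replicate 1, 2 without replicate 3, 3 without scramble untreated replicate 2, and 0 without any 1 of 12 other libraries. At 48 h the median difference was 0.02, and MRPL16 (1.3% of all genes higher) and MRPS6 (1.44% of all genes lower) passed. MRPL16 ended at 49.9 and 50.8 CPM in shATF4 cells against 35.2 and 33.9 CPM in scramble cells, from untreated levels of 93.2, 90.6 and 95.8 CPM. The 48 h libraries of the lines were apart, and the difference in response was 0.64 ± 0.14 (edgeR adjusted p = 0.014). It did not pass without scramble 48 h replicate 1 or 2 (edgeR adjusted p = 0.052 and 0.088) or without shATF4 48 h replicate 2 (0.059).

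**Figure D3:**
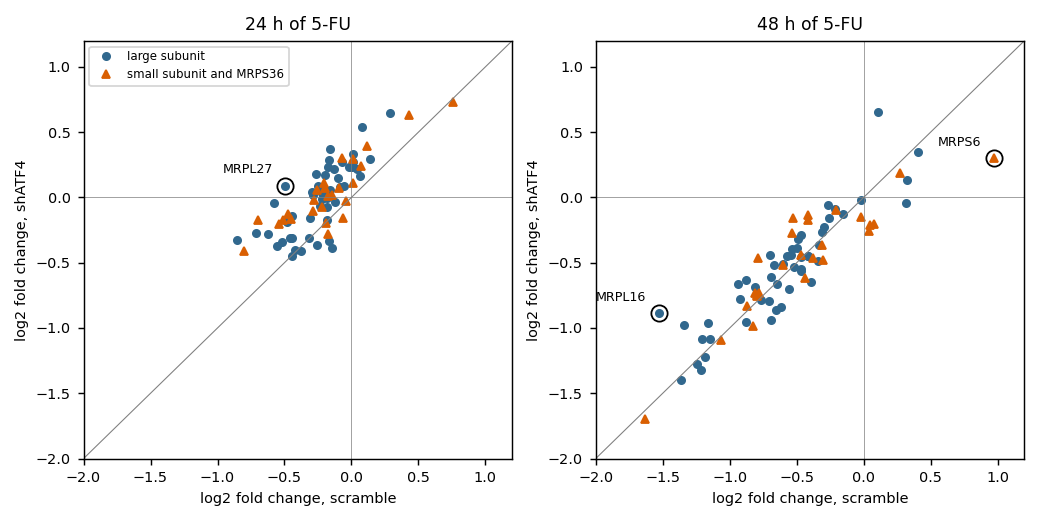
Log2 fold change of 5-FU over untreated in scramble cells (horizontal axis) and in shATF4 cells (vertical axis) for the 77 tested members at 24 h (left) and 48 h (right), with the line of equal response in grey. Ringed members are those whose difference in response passed the interaction test: MRPL27 at 24 h, and MRPL16 and MRPS6 at 48 h.

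MRPS6, the counterpart of bacterial S6 at the edge of the small subunit, was the member that rose in all 4 comparisons with untreated cells. Its level was 72.1, 69.1 and 83.1 CPM in untreated scramble cells, 122, 127 and 130 CPM after 24 h, and 147 and 146 CPM after 48 h. In shATF4 cells it was 76.3, 85.4 and 74.9 CPM untreated, 119, 128 and 147 CPM after 24 h, and 97.5 and 96.7 CPM after 48 h. The treated libraries of each line were all above its untreated ones, but in shATF4 cells the 48 h libraries lay below the 24 h ones. The log2 fold changes were 0.76 ± 0.08 and 0.97 ± 0.09 in scramble cells and 0.73 ± 0.08 and 0.30 ± 0.09 in shATF4 cells, and the difference at 48 h was -0.67 ± 0.13 (edgeR adjusted p = 0.0076). The rise at 48 h in shATF4 cells did not pass without shATF4 48 h replicate 1 (edgeR adjusted p = 0.055). The MRPS6 gene lies at chr21:34073224-34143034 on the plus strand, and 9.61% of its exon length overlaps 2 other genes on the same strand. The gene with the longest overlap, 294 bp, had 25 counts in all libraries against 27867 for MRPS6. Counts of the other gene were not examined.

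MRPS11, which lies on the platform of the small subunit, rose at 24 h in both lines, from 40.1, 46.3 and 45.1 to 60.3, 61.5 and 55.9 CPM in scramble cells and from 43.4, 41.6 and 40.7 to 53.2, 61.8 and 79.1 CPM in shATF4 cells. At 48 h it had 55.7 and 50 CPM and 44.1 and 51.3 CPM, values that were above untreated in both lines but did not pass (edgeR adjusted p = 0.063 and 0.20). Its neighbour MRPL46, singled out after its values were seen, is transcribed in the other direction from a start 320 bp away and encodes a mitochondria-specific large subunit protein. MRPL46 had 13, 12.4 and 14.1 CPM untreated, 14.6, 11.6 and 11.7 CPM at 24 h, and 9.93 and 9.1 CPM at 48 h in scramble cells, a log2 fold change of -0.47 ± 0.13 at 48 h (edgeR adjusted p = 0.0045). In that comparison MRPS11 had 0.27 ± 0.12, so the genes on the 2 sides of this shared promoter region had opposite signs, though only the MRPL46 change passed.

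MRPL41, a mitochondria-specific large subunit protein, had 39.5, 43.2 and 48.7 CPM in untreated shATF4 cells, 57.3, 71.9 and 62.1 CPM after 24 h, and 66.6 and 71.6 CPM after 48 h. In scramble cells its 8 libraries lay between 44.4 and 58.5 CPM. The treated shATF4 libraries were all above the untreated ones, with log2 fold changes of 0.54 ± 0.10 and 0.66 ± 0.11 (edgeR adjusted p = 0.00017 and 2.9e-05), while the scramble values were 0.08 ± 0.10 and 0.11 ± 0.11. The difference in response did not pass at either time (0.46 ± 0.14 and 0.55 ± 0.16; edgeR adjusted p = 0.086 and 0.065). MRPL53, a mitochondria-specific large subunit protein, rose at 24 h in shATF4 cells from 5.12, 3.73 and 3.86 to 6.8, 6.98 and 6.17 CPM, which did not overlap. It rests on 54 to 109 counts per library, and 45.2% of its exon length is shared with CCDC142 on the same strand, which had 4824 counts in all libraries against 1375 for MRPL53.

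**Figure D4:**
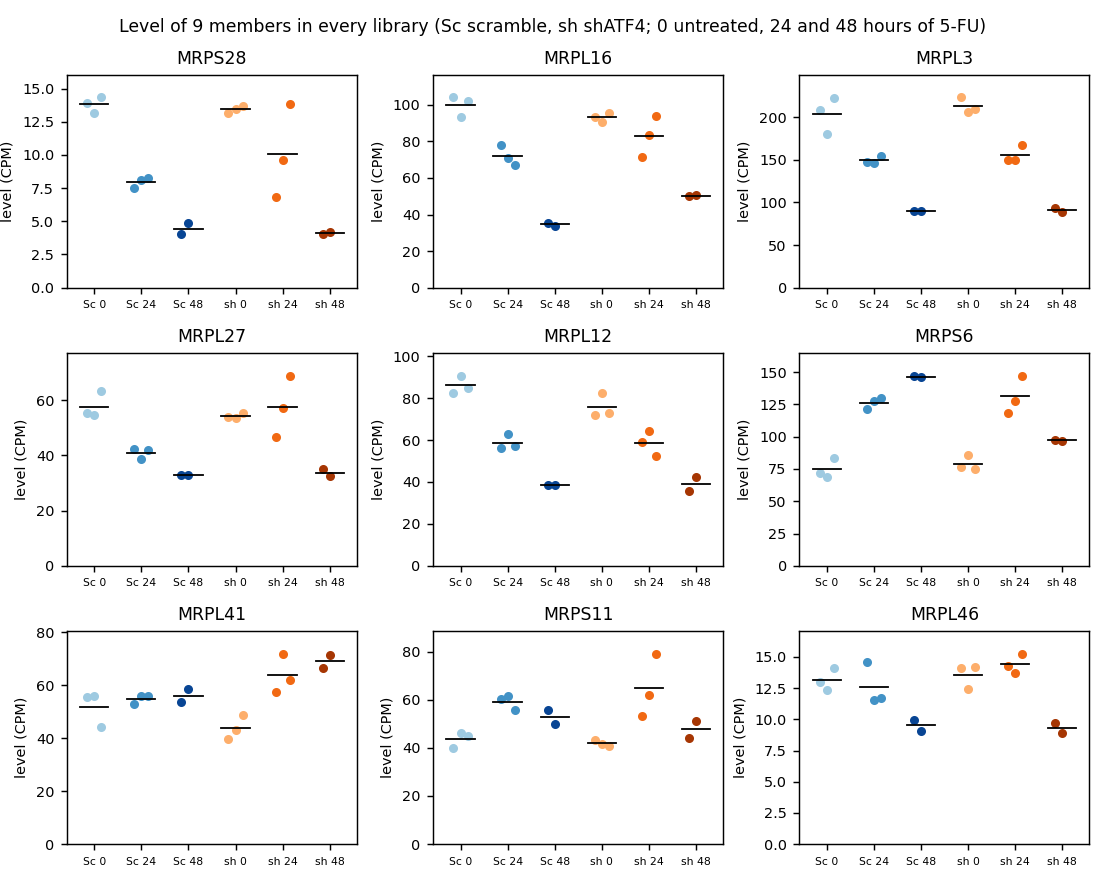
Level (vertical axis, TMM-scaled CPM, starting at 0) of 9 members in each library, with points for single libraries and bars for group means. MRPS28, MRPL16, MRPL3, MRPL27 and MRPL12 were lowest at 48 h in both lines, MRPS6 was above untreated at each treated time, and MRPL41 was above untreated in treated shATF4 cells.

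The gene family of MRPS18 has 3 nuclear copies in place of the single bacterial S18. MRPS18C is the copy closest to the bacterial place in the small subunit, MRPS18B lies elsewhere in the small subunit, and MRPS18A is part of the large subunit. MRPS18A had 38, 40.3 and 41.4 CPM untreated, 41.1, 41.9 and 42.5 CPM at 24 h, and 24.5 and 27.9 CPM at 48 h in scramble cells. It was thus not lower at 24 h and fell by 0.61 ± 0.10 at 48 h (edgeR adjusted p = 2e-05), and in shATF4 cells by 0.51 ± 0.10. Of its exon length 47% lies opposite RSPH9, which had 359 counts in all against 9134, and how strand was treated in the counting is not stated in the labels. MRPS18B fell by 0.20 ± 0.06 at 24 h and 0.31 ± 0.07 at 48 h in scramble cells, but with library totals alone its log2 fold changes were above 0, at 0.01 and 0.05, and did not pass. The 24 h call was also lost with upper-quartile scaling (edgeR adjusted p = 0.10) and with no filter (0.051). MRPS18C had 20.7, 19 and 23.9 CPM untreated and 16.8 and 15.9 CPM at 48 h, groups that did not overlap, and its log2 fold change of -0.38 ± 0.20 did not pass (edgeR adjusted p = 0.11). MRPS36, of the 2-oxoglutarate dehydrogenase complex, had -0.41 ± 0.17 at 48 h in scramble cells (edgeR adjusted p = 0.043), a call that was lost in 9 of 24 alternative fits, and -0.18 ± 0.17 in shATF4 cells.

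The genes that work with the mitochondrial ribosome were taken from lists. Their counts stand beside 30% of all genes lower and 30.6% higher at 48 h in scramble cells. These counts were not repeated with library totals alone, which moves the median of all genes upwards. Some of the falls counted here are smaller than that shift. All 5 mitoribosomal proteins with other names fell at 48 h in scramble cells, among them PTCD3 (log2 -1.08 ± 0.10) and DAP3 (-0.47 ± 0.07), both of the small subunit. Of 13 mitochondrial translation factors 8 fell and none rose. Those with the smallest p were TUFM (-0.92 ± 0.07), the elongation factor that brings tRNA, GFM1 (-0.86 ± 0.08), the translocase, and MRRF (-1.17 ± 0.12), which recycles ribosomes. Of 29 assembly and ribosomal RNA modification factors 23 fell and none rose. Those with the smallest p were RPUSD4 (-1.80 ± 0.10), a pseudouridine synthase, MRM1 (-1.20 ± 0.12), a ribosomal RNA methyltransferase, and OXA1L (-0.94 ± 0.10), the inner membrane insertase. Of 14 genes of mitochondrial transcription and RNA stability 11 fell, among them PNPT1 (-0.86 ± 0.10). The 11 include TRMT10C (-1.20 ± 0.11) and ELAC2 (-1.11 ± 0.08), which take part in cutting the primary transcripts at tRNA ends. Of 9 regulators of such genes 8 fell, among them PPARGC1B (-1.77 ± 0.18), a coactivator, and NRF1 (-0.89 ± 0.11).

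The messages that the mitochondrial ribosome itself translates are those of mitochondrial DNA. At 48 h in scramble cells 30% of all genes fell and 30.6% rose. Counts for the lists that follow were not repeated with library totals alone. Of the 13 proteins encoded in mitochondrial DNA none fell and 3 rose, a smaller share than of all genes. These were MT-ND6 (1.05 ± 0.17), MT-ND1 (0.90 ± 0.21) and MT-CO1 (0.53 ± 0.16), and the list had a median of 0.02. As a share of counts the 13 took 0.753% to 1.42% in untreated scramble libraries, with the highest in replicate 2, and 1.47% to 1.49% at 48 h. Untreated replicates 1 and 3 had 0.753% and 0.766%. The calls and median of this list were not repeated without replicate 2. Since poly(A) selection was used, these shares and the values of single genes depend on the tails of mitochondrial messages, which were not measured. The strand setting of the counting was not given, so reads from the opposite strand may be included. Of 13 genes of the mitochondrial unfolded protein response 9 fell, among them the protease LONP1 (-2.09 ± 0.10) and the chaperones HSPD1 (-1.50 ± 0.07) and TRAP1 (-1.38 ± 0.07), and 2 rose, the transcription factor ATF5 (0.98 ± 0.10) and the protease SPG7 (0.31 ± 0.09).

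The genes for proteins of the cytosolic ribosome had lower medians than the members in all 4 comparisons with untreated cells. Of 77 cytosolic ribosomal protein genes 70 fell at 24 h and 74 at 48 h in scramble cells, with medians of -0.69 and -1.28, and 37 and 72 in shATF4 cells, with medians of -0.25 and -1.08. The 76 nuclear genes of the respiratory chain were closer to the members: 25 fell and 1 rose at 24 h and 50 fell and 2 rose at 48 h in scramble cells, with medians of -0.19 and -0.48. In shATF4 cells 12 of them fell and 19 rose at 24 h (median 0.22), and 36 fell and 2 rose at 48 h (median -0.34). Of all genes 22.2% fell and 21.8% rose at 24 h in scramble cells, and 30% and 30.6% at 48 h. In shATF4 cells these shares were 21.2% and 23.2% at 24 h, and 28.7% and 29.6% at 48 h. Between the lines at 24 h, 64 of the cytosolic ribosomal protein genes were higher in shATF4 cells, as were 26 of the respiratory chain genes (10.5% of all genes). Cytosolic ribosomal protein genes took 6.43% of counts in shATF4 24 h replicate 3, which stood apart, and 4.35% and 4.96% in replicates 1 and 2. In the scramble 24 h libraries they took 4.1% to 4.17%. The counts for these lists were not repeated without replicate 3 or with library totals alone. Differences between the lists were not tested.

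**Figure D5:**
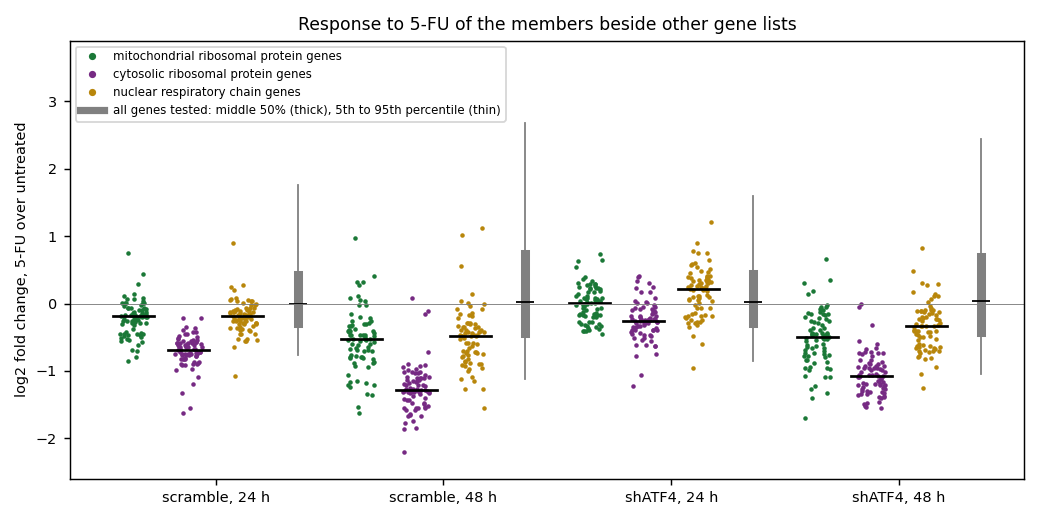
Log2 fold change of 5-FU over untreated (vertical axis) for each gene of 3 lists in both lines at 24 h and 48 h, with black bars for the list medians and grey bars for the spread of all 17309 genes tested. The medians of the mitochondrial ribosomal protein genes are -0.19, -0.53, 0.01 and -0.49 from left to right, and those of the cytosolic ribosomal protein genes lie lower in each case.

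Some members share exons with other genes, whose reads the counting could split. Of the 78 members 37 had no exon that overlaps another gene of GENCODE 29, the annotation whose identifiers, coordinates and exon lengths match the deposited table for 58735 of 58735 genes. Of these 37, 28 fell and none rose at 48 h in scramble cells (median -0.49), and of the 40 tested members with an overlap 32 fell and 1 rose (median -0.54). Of all genes 30% fell and 30.6% rose in that comparison. The fall of MRPS28 rests on 69 to 237 counts per library, and 35.8% of its exon length is shared with a gene that had 2 counts in all libraries. MRPL12 shares 68.2% with a gene that had 1 count. How the counting assigned reads in shared exons was not examined. A low count in the partner therefore does not show that the member lost no reads there. MRPS24, the untested member, had 100 counts over all 16 libraries, and the readthrough gene URGCP-MRPS24 had 13.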

How the data were processed

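Poly(A)-selected RNA of 16 SW620 libraries in 6 groups was sequenced. The authors counted reads per gene with featureCounts 1.5.0-p3 on GRCh38, per the submitters' processing notes. The deposited whole-number counts were used as they stand, not normalized. The aligner, annotation release and strand setting were not given in the sources used here. For 7 comparisons the authors' deposited table gives log2 fold changes with adjusted p-values, per the file headers. In them 60 members were lower and 1 higher at 48 h in scramble cells, 57 and 2 in shATF4 cells, 34 and 3 at 24 h in scramble cells, and 11 and 6 at 24 h in shATF4 cells. Between the lines 0 were lower and 2 higher untreated, 0 and 9 at 24 h, and 2 and 3 at 48 h.

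The filterByExpr filter of edgeR 4.0.16 (R 4.3.3) left 17309 genes with 99.9% of counts. Libraries were scaled by TMM and a quasi-likelihood model with the 6 groups was fitted to all 16 libraries (10 residual degrees of freedom), so groups of 2 shared the spread of the others. Calls are at a Benjamini-Hochberg adjusted p under 0.05 over all genes in 11 comparisons. SEs were derived from the F statistic of that test. The fit was tested on simulated data. Levels are CPM on TMM-scaled library sizes with the SD between libraries, and they cover no error beyond these libraries. Gene length in bp came with the deposited table. Motifs were searched as exact letters on both strands.

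The members and lists were chosen with earlier results of these data known. Named members were the 6 lowest and 6 highest called in each comparison of 5-FU with untreated, up to 4 per direction with the smallest p elsewhere, MRPL12, MRPL58, MRPS30, MRPL41, MRPS36 and the MRPS18 copies, and the 5 highest and 5 lowest per length. Up to 3 called genes per direction with the smallest p were named from other lists at 48 h in scramble cells. Alternatives were RLE and upper-quartile scaling, no filter, a replicate block, the compared groups alone, DESeq2 1.42.0, each library left out, both libraries that stood apart left out and, added after the data were seen, library totals alone.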

Additional observations from a re-analysis of the deposited data

Results flagged for a closer look

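By the interaction test 3 members answered 5-FU differently in the scramble and shATF4 lines, shares close to those of all genes: 1 of 77 higher at 24 h (0.947% of all genes), and 1 higher and 1 lower at 48 h (1.3% and 1.44% of all genes). For MRPL27 at 24 h the response was 0.58 higher on the log2 scale in shATF4 cells (edgeR adjusted p = 0.041), and this call was lost in 16 of 24 alternative fits, with adjusted p-values up to 0.10. For MRPS6 at 48 h it was lower by a difference of -0.67 (edgeR adjusted p = 0.0076), which passed in all 24 alternative fits. For MRPL16 at 48 h it was higher by 0.64 (edgeR adjusted p = 0.014), which passed in 21 of 24 and did not pass when scramble 48 h replicate 1 or 2 or shATF4 48 h replicate 2 was left out (edgeR adjusted p = 0.052, 0.088 and 0.059). No cause was tested.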

How the results depend on the processing

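The number of members that fell at 48 h stayed within 1.5 times its value in both lines in each alternative run except library totals alone. With 1 library left out, the numbers lower and higher ranged over 29 to 40 and 2 to 3 (24 h, scramble), 55 to 65 and 1 to 4 (48 h, scramble), 9 to 25 and 6 to 21 (24 h, shATF4), 49 to 60 and 1 to 3 (48 h, shATF4), 32 to 48 and 0 to 3 (48 h against 24 h, scramble), 53 to 64 and 0 to 0 (the same, shATF4), 0 to 0 and 0 to 1 (lines, untreated), 0 to 2 and 7 to 34 (lines, 24 h), 1 to 5 and 1 to 3 (lines, 48 h), 0 to 0 and 0 to 22 (difference in response, 24 h), and 1 to 1 and 0 to 3 (difference in response, 48 h).

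With library totals alone, chosen after seeing the data, the numbers lower and higher were 17 and 9 (24 h) and 36 and 11 (48 h) in scramble cells, 7 and 24 and 34 and 8 in shATF4 cells, 4 higher and 1 higher from 24 h to 48 h in scramble and shATF4 cells, 2 lower and 10 higher between the lines at 24 h, and 0 higher for the difference at 24 h. The median at 24 h in scramble cells reversed to 0.0225, and MRPS18B to 0.0123 at 24 h and 0.0521 at 48 h. This setting moved the median of all genes by 0.21 and 0.36 in scramble and 0.10 and 0.32 in shATF4 cells, and the share of all calls that were higher at 48 h in scramble cells from 50.5% to 76.5%. Upper-quartile scaling moved the median of all genes by 0.15 and 0.13 at 48 h and that share to 61.4%.

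Members higher at 48 h in scramble cells were 3 with RLE, 6 with upper-quartile scaling, 3 with the compared groups alone, 2 with DESeq2 and 2 without both libraries that stood apart. Upper-quartile scaling gave 4 higher at 48 h in shATF4 cells, 2 from 24 h to 48 h in scramble cells and 0 for the difference at 24 h. With no filter the counts higher were 0 from 24 h to 48 h in scramble cells, 8 for the difference at 24 h and 2 at 48 h. The compared groups alone gave 6 higher at 24 h in shATF4 cells, 3 from 24 h to 48 h in scramble cells, 0 lower and 7 higher between the lines at 24 h, 4 lower and 5 higher at 48 h, and 0 for the difference at 24 h. DESeq2 gave 4 lower between the lines at 48 h, and 3 and 2 higher for the differences at 24 h and 48 h. Without both libraries that stood apart, 28 fell and 7 rose at 24 h in shATF4 cells with a reversed median of -0.0944 (the range with 1 library left out was -0.0943, without shATF4 24 h replicate 3, to 0.0704), 3 rose from 24 h to 48 h in scramble cells, and between the lines 2 were lower untreated, 2 lower at 24 h, and 7 lower and 5 higher at 48 h, with 4 and 4 higher for the differences at 24 h and 48 h.

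Replicate numbers were not treated as pairing the samples, since not every pair with the same number correlated above 0.1: deviations from group means did so in 12 of 36 such pairs (-0.21 to 0.24, median 0.06) and in 10 of 70 others (median -0.03). With a replicate block the counts higher were 3 at 48 h in scramble cells, and 3 and 2 for the differences at 24 h and 48 h. Of 81 results for named members, 63 passed in all 24 alternatives. The cause of these shifts was not tested. Groups of 2 libraries at 48 h limit the precision, and where 1 of them was left out the other was assumed to vary like the other groups.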
